A study of Homo sapiens with 6 samples.

Results

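The 6 human ST3GAL genes, ST3GAL1 to ST3GAL6, encode the α2,3-sialyltransferases, and their transcripts were compared in HCT-15 cells with and without 5-aza-2'-deoxycytidine. Members were taken as every probe set whose RefSeq transcript belongs to one of these genes, which gave 7 of the 1259 probe sets and 6 of the 927 named genes. ST3GAL2 had 2 probe sets, and each of the others had 1. HCT-15 is an established line from a human colon cancer, and the drug is a cytosine analogue that enters DNA and traps the enzyme that maintains DNA methylation. The groups were 3 arrays of HCT-15 cells treated with the drug and 3 arrays of untreated HCT-15 cells, all of total RNA. Dose, duration and vehicle are not stated in the labels. The submitters asked which glycan genes change in cells that show more sialyl Lewis x, a glycan bound by E-selectin, after treatment.

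ST3GAL enzymes sit in the Golgi membrane and move sialic acid from CMP-sialic acid onto a terminal galactose in α2,3 linkage. They differ mainly in the chain that carries the galactose. ST3GAL1 and ST3GAL2 act on the core 1 disaccharide of O-glycans, and ST3GAL2 also on gangliosides. ST3GAL3, ST3GAL4 and ST3GAL6 act on the galactose of lactosamine chains, as on N-glycans, and ST3GAL5 makes the ganglioside GM3 from lactosylceramide. An α2,3-sialylated lactosamine is the substrate that fucosyltransferases turn into sialyl Lewis x.

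Array medians lay between 5.90 and 5.92 in treated cells and between 5.81 and 5.88 in untreated cells, on the log2 scale on which all levels below are given. The title of untreated replicate 3 calls that array treated, whereas its source name and treatment entry say untreated, which placed it here. Untreated pairs, this array included, correlated at 0.9978 to 0.9982, treated pairs at 0.9974 to 0.9987, and no pair across the groups exceeded 0.9844. Of the fixed markers of colon epithelium 3 of 12 were measured, MUC13, LGALS4 and MUC2, and their mean level was 7.86 to 7.90 in treated arrays and 7.69 on every untreated array. Within that list MUC13, a membrane mucin, rose by 0.96 (limma adjusted p = 6.15e-06), LGALS4, an intestinal galectin, changed by -0.51 (adjusted p = 0.00029), and MUC2 was not called. Of the leukocyte markers 4 of 7 were measured, at mean levels of 4.70 to 4.82 in treated arrays and 4.60 to 4.72 in untreated arrays. Of the endothelial and stromal markers 4 of 6 were measured, at 3.32 to 3.44 in treated arrays and 3.20 to 3.38 in untreated arrays. Called among these were CD33 (0.57, limma adjusted p = 0.000168), CD22 (-0.25, adjusted p = 0.013) and PECAM1 (0.30, adjusted p = 0.0403). None of these 8 leukocyte, endothelial and stromal markers lay above the median level of all probe sets, and their part in the results was not tested.

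Among the 6 genes, ST3GAL1 and ST3GAL6 rose in treated cells, ST3GAL3 fell, and ST3GAL2, ST3GAL4 and ST3GAL5 did not pass the test. The fall of ST3GAL3 was 1.70-fold and was the only called change of at least 1.5-fold in the family. A probe set was called where limma's Benjamini-Hochberg adjusted p over all probe sets was under 0.05. That rule called 34.8% of all probe sets, 18% as higher and 16.8% as lower. Of all named genes it called 37.3%, against 3 of the 6 ST3GAL genes. The median change of the 6 genes was 0.25 on the log2 scale, against -0.004 over all named genes. With untreated replicate 3 left out for its conflicting title, 3 genes were higher and 1 was lower. Over all probe sets 227 were higher and 211 lower as deposited, and 197 were higher and 311 lower with every array's median set equal, a setting in which ST3GAL1, ST3GAL3 and ST3GAL6 had the same calls. In bulk RNA, fewer cells with a transcript and less of it per cell cannot be told apart. The labels do not say whether the replicates were separate cultures, so the spread behind each p-value is that between these arrays and may be technical only.

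**Figure D1:**
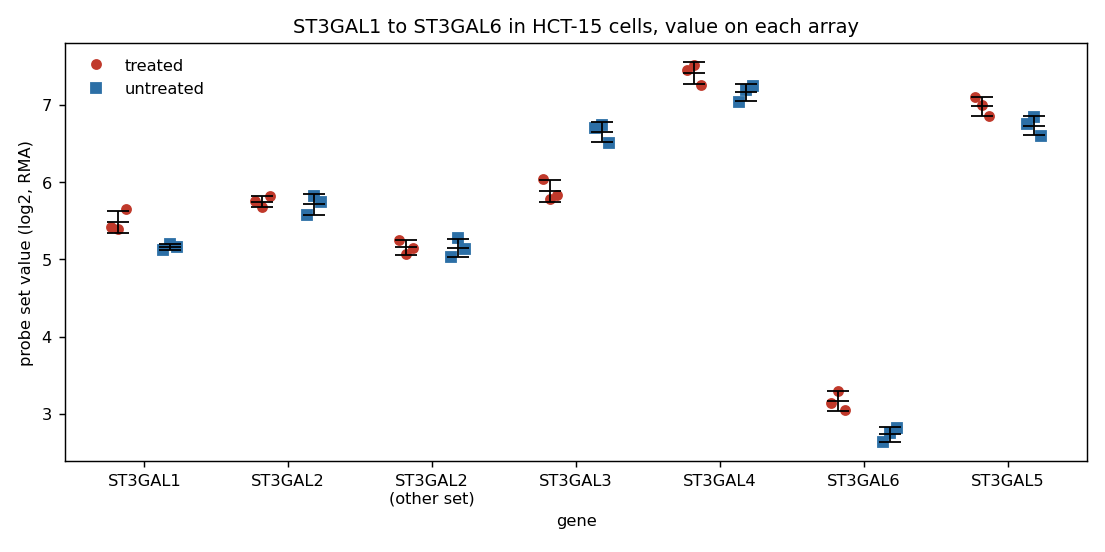
Level of each ST3GAL probe set (y axis, log2 RMA value) on each array, with treated arrays as circles left of untreated arrays as squares and bars for mean ± SD (n = 3 each). The ST3GAL3 points of treated cells all lie below those of untreated cells, ST3GAL1 and ST3GAL6 lie above, and both ST3GAL2 probe sets overlap.

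Of the O-glycan enzymes, ST3GAL1 was called and ST3GAL2 was not. ST3GAL1, which caps core 1 O-glycans with α2,3-sialic acid, had levels of 5.42, 5.39 and 5.65 in treated cells, against 5.12, 5.20 and 5.16 in untreated cells. All 3 treated arrays lay above all 3 untreated arrays, by at least 0.19, and treated replicate 3 was the highest. The mean was 5.49 ± 0.14 in treated cells and 5.16 ± 0.04 in untreated cells (SD, n = 3 each). This was a rise of 0.33 ± 0.08 on the log2 scale (SE, 1.25-fold) with a limma adjusted p = 0.0108. The rise was not called in an ordinary equal-variance test (adjusted p = 0.0651), the highest of a range over 13 alternatives that began at 0.00821.

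ST3GAL2, which uses the same O-glycan acceptor and also ganglioside chains, was measured by 2 probe sets. The one with the higher mean gave 5.76, 5.67 and 5.82 in treated cells, against 5.57, 5.82 and 5.74 in untreated cells. The other gave 5.26, 5.07 and 5.15 in treated cells, against 5.03, 5.27 and 5.14 in untreated cells. In both probe sets the groups overlapped, with untreated replicate 1 the lowest and untreated replicate 2 the highest of the 6 arrays. The changes were 0.04 (95% interval -0.15 to 0.22, limma adjusted p = 0.803) and 0.01 (interval -0.18 to 0.20, adjusted p = 0.95), and the first turned to -0.03 after quantile normalization or median centring. The ending of the name of the higher one marks probes that can bind transcripts of other genes.

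The lactosamine enzymes held both the called fall and the larger of the called rises. ST3GAL3, which sialylates galactose on lactosamine chains and favours the type 1 chain, had levels of 6.05, 5.78 and 5.84 in treated cells, against 6.70, 6.74 and 6.51 in untreated cells. The groups were 0.46 apart at their nearest values, the widest gap of the 7 probe sets. The mean was 5.89 ± 0.14 in treated cells and 6.65 ± 0.12 in untreated cells (SD, n = 3 each), a change of -0.76 ± 0.09 (SE, limma adjusted p = 8.41e-05). Of all probe sets, 91.6% had a smaller change in size. It was called in all 13 alternatives, with changes between -0.84 and -0.71.

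Since CG dinucleotides are the sites where DNA methylation is maintained in human cells, the promoter windows of ST3GAL3 and ST3GAL6, the genes with the largest fall and rise of the family, are shown with each CG in capitals. Methylation was not measured in these samples. The sequences are RefSeq's for GRCh38.p14, 5′ to 3′, from 250 bases before to 50 bases after an annotated transcript start. The array does not tell which start was used. ST3GAL3 has 1 window in the table and ST3GAL6 has 4, of which the most upstream and the richest in CG are printed.
ST3GAL3, chr1:43707286-43707585, plus strand: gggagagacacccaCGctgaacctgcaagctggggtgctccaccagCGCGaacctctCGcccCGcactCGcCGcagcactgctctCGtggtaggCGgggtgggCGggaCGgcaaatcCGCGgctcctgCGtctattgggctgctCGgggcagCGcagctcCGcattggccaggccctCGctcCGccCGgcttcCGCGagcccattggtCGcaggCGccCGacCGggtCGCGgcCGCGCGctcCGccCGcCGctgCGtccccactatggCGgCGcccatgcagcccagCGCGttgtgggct
ST3GAL6 window 1, chr3:98732012-98732311, plus strand: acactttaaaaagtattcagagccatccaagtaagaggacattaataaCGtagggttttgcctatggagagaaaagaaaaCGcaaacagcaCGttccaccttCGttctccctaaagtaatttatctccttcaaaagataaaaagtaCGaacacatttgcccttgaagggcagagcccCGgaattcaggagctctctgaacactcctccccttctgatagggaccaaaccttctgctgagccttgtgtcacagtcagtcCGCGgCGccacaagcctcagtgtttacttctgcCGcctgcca
ST3GAL6 window 2, chr3:98732451-98732750, plus strand: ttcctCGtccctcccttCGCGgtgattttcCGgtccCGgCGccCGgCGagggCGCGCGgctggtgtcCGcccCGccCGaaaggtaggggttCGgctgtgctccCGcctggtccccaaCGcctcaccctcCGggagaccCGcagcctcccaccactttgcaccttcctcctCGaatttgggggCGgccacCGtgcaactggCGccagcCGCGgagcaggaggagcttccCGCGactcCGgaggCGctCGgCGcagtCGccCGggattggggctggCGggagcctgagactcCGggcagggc

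The ST3GAL3 window held 39 CG dinucleotides, more than 91.3% of the 35116 promoter windows of the same table, whose median was 14. Its base composition was 73.7% G and C, and CG stood at 0.96 of the number that this composition gives. For ST3GAL6 the most upstream window held 10 CG, while the next, which starts 439 bases downstream, held 35. Its remaining windows held 25 and 1. Motifs were searched on both strands. The GC box GGGCGG, a sequence bound by Sp1, occurred 3 times in the ST3GAL3 window and 3 times in ST3GAL6 window 2 but not in window 1, and 45% of all windows hold it. CCAAT occurred 3 times in the ST3GAL3 window, against 34.6% of windows with at least 1. TATAAA was in neither gene's windows and is in 11.5% of all windows. GGGCGG, like TGACGTCA and CACGTG searched with it, contains a CG, so its matches overlap the CG count.

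ST3GAL4, which sialylates type 2 lactosamine and is known from mice as a maker of selectin ligands on leukocytes, had levels of 7.46, 7.52 and 7.25 in treated cells, against 7.04, 7.20 and 7.25 in untreated cells. The groups met without overlapping, with only 0.0018 between treated replicate 3 and untreated replicate 3. The mean was 7.41 ± 0.14 in treated cells and 7.16 ± 0.11 in untreated cells (SD, n = 3 each). The change of 0.25 ± 0.09 (SE, 95% interval 0.05 to 0.45) missed the threshold with a limma adjusted p = 0.0584. It passed without treated replicate 3 (adjusted p = 0.0172) and without untreated replicate 3 (adjusted p = 0.0478), in a range over 13 alternatives of 0.00984 to 0.197.

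ST3GAL6, another sialyltransferase of type 2 lactosamine that contributes to selectin ligands in mice, had levels of 3.15, 3.30 and 3.05 in treated cells, against 2.63, 2.75 and 2.82 in untreated cells. The lowest treated array lay 0.23 above the highest untreated array. The mean was 3.17 ± 0.13 in treated cells and 2.73 ± 0.10 in untreated cells (SD, n = 3 each). This was a rise of 0.43 ± 0.09 (SE, 1.35-fold, limma adjusted p = 0.0025), called in all 12 alternatives that kept the probe set. It is a dim probe set, with 4.69% of probe sets at or below its mean level, and it was dropped when the dimmest were left out. A background level was not available against which to set it, and the ending of its name, shared with the probe sets of ST3GAL1 and ST3GAL5, marks probes that may also detect other genes.

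The glycolipid enzyme ST3GAL5, the GM3 synthase that opens the ganglio-series, had levels of 7.10, 7.00 and 6.86 in treated cells, against 6.75, 6.85 and 6.60 in untreated cells. The groups were 0.011 apart at their nearest values, those of treated replicate 3 and untreated replicate 2. The mean was 6.98 ± 0.12 in treated cells and 6.73 ± 0.12 in untreated cells (SD, n = 3 each). The change of 0.25 ± 0.09 (SE, 95% interval 0.05 to 0.45) missed the threshold with a limma adjusted p = 0.0518. Without treated replicate 3 it passed with an adjusted p = 0.0263 and without untreated replicate 2 with an adjusted p = 0.0417, in a range over 13 alternatives of 0.0163 to 0.194.

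**Figure D2:**
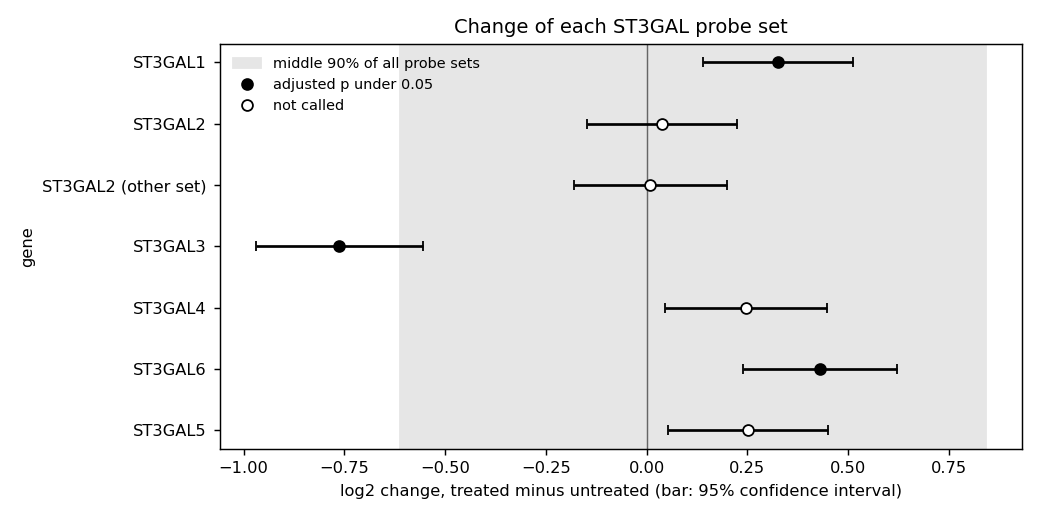
Log2 change of each ST3GAL probe set, treated minus untreated (x axis), with the 95% confidence interval of limma's fit and genes in rows by acceptor. ST3GAL3 at -0.76 lies outside the shaded middle 90% of all probe sets, -0.61 to 0.84, while the others lie inside it.

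Of all named genes 19.7% were called higher and 17.6% lower. By acceptor, 1 of 2 O-glycan genes was called higher. Among the 3 lactosamine genes 1 was higher, 1 lower and 1 not called, and the glycolipid gene was not called. Of the 7 probe sets, 5 had groups that did not overlap, 4 with treated arrays higher and 1 with treated arrays lower. Among those higher, ST3GAL4 and ST3GAL5 were separated by only 0.0018 and 0.011, and the count required no least gap. Over all probe sets the groups did not overlap in 46.1%, with 22.7% higher and 23.4% lower.

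Members were also set against each other within each array, where the scaling of the array cancels. The level difference of a pair reflects its probes as well as its transcripts, so only its change was read. ST3GAL3 minus ST3GAL4 averaged -1.52 ± 0.19 in treated cells and -0.51 ± 0.21 in untreated cells (SD, n = 3 each), a change of -1.01. ST3GAL3 minus ST3GAL6 averaged 2.72 ± 0.22 in treated cells and 3.91 ± 0.20 in untreated cells, a change of -1.19 and the largest in size of the 15 pairs. Both differences were lower on every treated array than on any untreated array.

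ST3GAL3 minus ST3GAL5 averaged -1.10 ± 0.11 in treated cells and -0.08 ± 0.03 in untreated cells (SD, n = 3 each), a change of -1.01. Between the O-glycan genes, ST3GAL1 minus ST3GAL2 averaged -0.26 ± 0.09 in treated cells and -0.55 ± 0.09 in untreated cells, a change of 0.29 in favour of ST3GAL1. ST3GAL4 minus ST3GAL6 had the smallest spread, at 4.24 ± 0.06 in treated cells and 4.43 ± 0.02 in untreated cells, and changed by -0.18. ST3GAL4 minus ST3GAL5 overlapped between the groups and changed by -0.005.

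The groups did not overlap in 8 of the 15 pairs, against 57.1% of all pairs of named genes. Among the 8 were all 5 pairs with ST3GAL3. These 5 share the ST3GAL3 values, so their separation largely restates the fall of that gene and is not separate evidence. The share of separated pairs among genes with a fall of similar size was not computed. All 15 pairs come from the same arrays and share members, so they are not independent. In the exact permutation test (two-sided, 20 assignments of arrays) each of the 8 separated pairs reached p = 0.1, the smallest this design allows. Their Benjamini-Hochberg value over 15 pairs was 0.188. The design cannot bring a pair under 0.05. In the remaining 7 pairs, which do not involve ST3GAL3, the exact p ranged from 0.2 to 1.

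**Figure D3:**
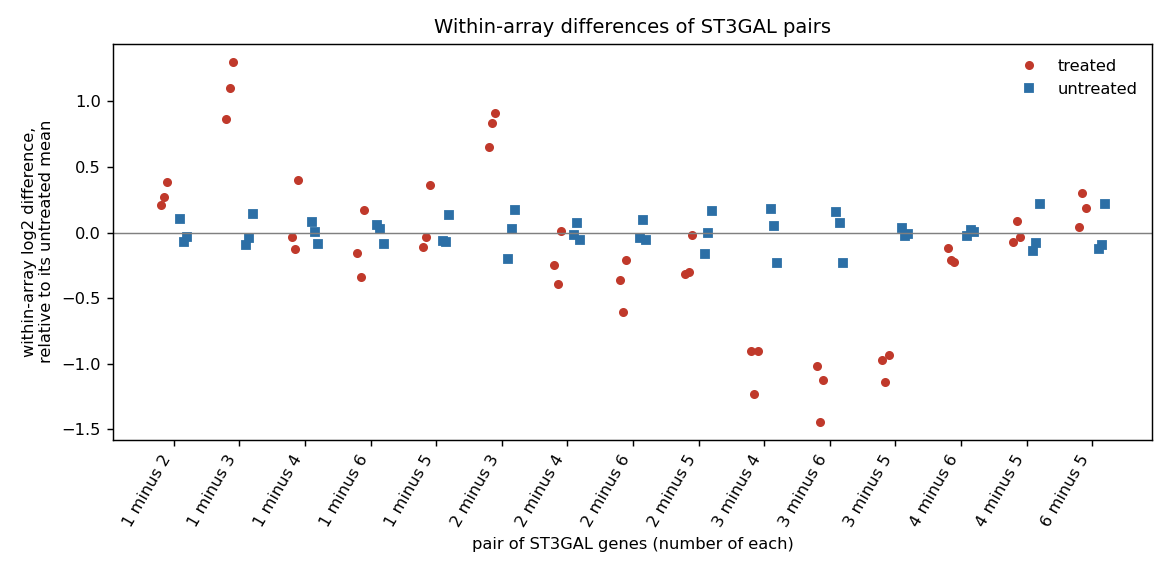
Within-array log2 difference of each of the 15 ST3GAL pairs (x axis), drawn relative to its mean in untreated cells (y axis), with treated arrays as circles left of untreated arrays as squares. The 5 pairs with ST3GAL3 stand farthest from 0 in treated cells, with changes of 0.80 and 1.09 where ST3GAL3 is subtracted and -1.01, -1.01 and -1.19 where it comes first.

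Other enzymes that handle sialic acid moved in both directions. Supply of CMP-sialic acid, the shared donor, had 1 rise and 2 falls among 4 measured genes. Calls over all named genes were 19.7% higher and 17.6% lower. GNE, which makes the sialic acid precursor ManNAc from UDP-GlcNAc, averaged 9.71 in treated cells and 9.36 in untreated cells (log2 change 0.35 ± 0.09 SE, limma adjusted p = 0.0128). CMAS, which activates sialic acid to CMP-sialic acid, averaged 9.46 in treated cells and 10.11 in untreated cells (-0.65 ± 0.09, adjusted p = 0.000264). The ordinary test did not call GNE, nor did the fit without treated replicate 1. Among 4 sialidases, which remove sialic acid, only the lysosomal enzyme NEU1 was called, at 9.50 in treated cells and 8.53 in untreated cells (0.97 ± 0.07, 1.96-fold, adjusted p = 2.19e-06), and its other probe set changed by 1.06. The name endings of both NEU1 probe sets mark probes that may also detect other genes. No sialidase was called lower by limma, at an unadjusted p under 0.05 or in the ordinary test (0 each), but quantile normalization gave 2 falls and median centring gave 1. Over all probe sets the called falls also increased, from 211 as deposited to 265 and 311 under these rescalings.

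Sialyltransferases of other linkages share the donor, and some share acceptors with the ST3GAL enzymes. Among 8 genes of the α2,6 group 3 rose and 1 fell, against 19.7% and 17.6% of all named genes. ST6GALNAC5, a ganglioside enzyme, averaged 3.86 in treated cells and 2.86 in untreated cells (log2 change 1.00 ± 0.13 SE, limma adjusted p = 0.000145). Its probe set is dim, with 11.0% of probe sets at or below its mean level. ST6GALNAC4, which adds α2,6-sialic acid to core 1 chains already carrying α2,3-sialic acid, averaged 7.92 in treated cells and 8.35 in untreated cells (-0.43 ± 0.07, adjusted p = 0.000459). Of 6 α2,8 genes 2 rose and the other 4 were not called, although 1 fell after either rescaling. ST8SIA4, a polysialyltransferase, averaged 2.86 in treated cells and 2.51 in untreated cells (0.35 ± 0.07, adjusted p = 0.00232), but its other 2 probe sets changed by 0.03 and 0.003 and were not called. The called probe set is dimmer still, with 2.14% of probe sets at or below its mean level.

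Enzymes that build or compete for the acceptors were likewise mixed. For the core 1 O-glycan, the acceptor of ST3GAL1 and ST3GAL2, 2 of 6 measured genes rose and 2 fell. Among all named genes the shares were 19.7% higher and 17.6% lower. C1GALT1, which makes core 1, averaged 5.35 in treated cells and 4.65 in untreated cells (log2 change 0.70 ± 0.10 SE, limma adjusted p = 0.000291). GCNT1, which branches core 1 into core 2, averaged 5.90 in treated cells and 6.61 in untreated cells (-0.71 ± 0.11, adjusted p = 0.000361).

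For lactosamine, the acceptor of ST3GAL3, ST3GAL4 and ST3GAL6, 3 of 10 genes rose and 2 fell, and 4 fell after median centring. As deposited, 19.7% of all named genes were called higher and 17.6% lower. B3GNT2, which extends polylactosamine, averaged 7.89 in treated cells and 6.99 in untreated cells (log2 change 0.90 ± 0.09 SE, limma adjusted p = 1.96e-05). B3GNT4, of the same enzyme family, averaged 7.05 in treated cells and 7.40 in untreated cells (-0.35 ± 0.07, adjusted p = 0.00323). Of 6 measured α1,3/4-fucosyltransferases, which can fucosylate lactosamine, 0 rose in limma's test, at an unadjusted p under 0.05 or in the ordinary test. At an unadjusted limma p under 0.05, for which the share of all genes was not computed, the falls numbered 3, and 1 of them was called. That was FUT3, at 5.88 in treated cells and 6.39 in untreated cells (-0.51 ± 0.11, adjusted p = 0.00485), and its other probe set changed by -0.56. Quantile normalization gave 2 falls in this list and median centring gave 3. Called falls over all probe sets also increased, from 211 as deposited to 265 after quantile normalization and 311 after median centring.

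Around ST3GAL5, 3 of 9 glycolipid genes rose and 1 fell, against 19.7% and 17.6% of all named genes. ST8SIA1, which rose, and ST8SIA5, which was not called, are also counted in the α2,8 list. One of the rises, A4GALT, which makes the globo-series, rested on a probe set that changed by 0.28, while its other probe set changed by 0.05 and was not called (limma adjusted p = 0.697). UGCG, which starts glycolipids by making glucosylceramide, averaged 7.57 in treated cells and 6.98 in untreated cells (log2 change 0.59 ± 0.10 SE, limma adjusted p = 0.000672). B3GALT4, which extends gangliosides downstream of GM3, averaged 6.09 in treated cells and 6.82 in untreated cells (-0.74 ± 0.09, adjusted p = 8.05e-05). B4GALT5 and B4GALT6, which make the lactosylceramide that ST3GAL5 uses, changed by -0.01 and 0.05 and were not called.

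**Figure D4:**
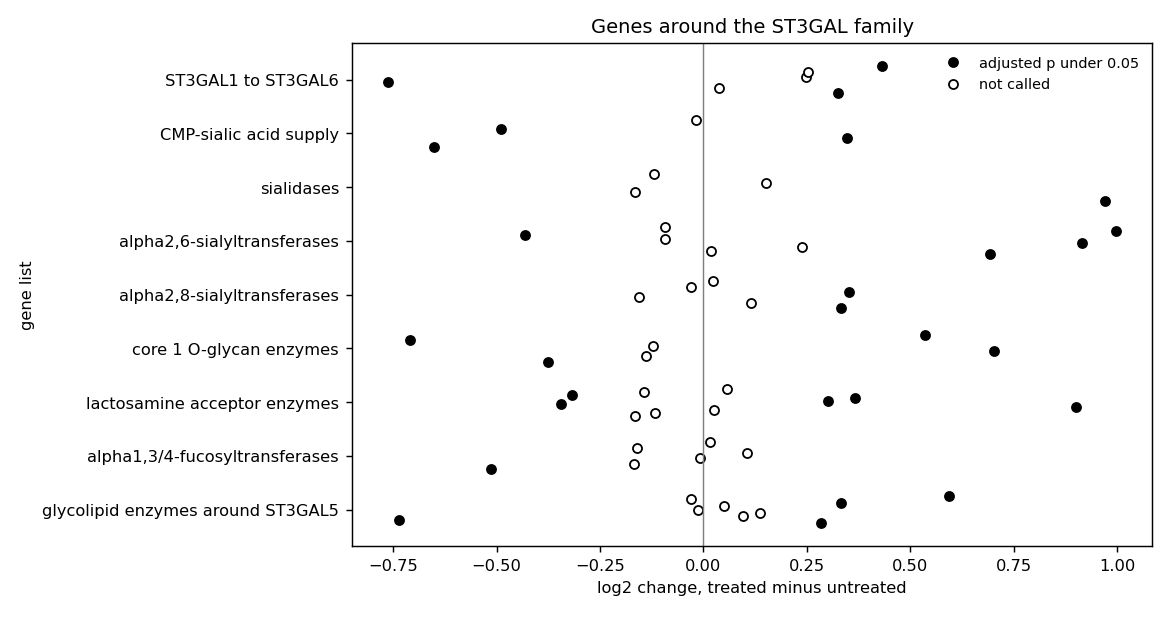
Log2 change of each gene, treated minus untreated (x axis), for ST3GAL1 to ST3GAL6 and 8 lists of genes around them (rows), with filled points for genes called by limma and open points for the rest (the height within a row has no meaning). Filled points stand on both sides of 0 in the ST3GAL row and in 5 of the 8 lists. Over all named genes 19.7% were called higher and 17.6% lower. ST8SIA1 and ST8SIA5 are in both the α2,8 list and the glycolipid list.

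The promoter windows of ST3GAL4 and ST3GAL5 ranged as widely as those of ST3GAL6. ST3GAL4 had 3 windows with 46, 9 and 8 CG, the most upstream being the richest, with more CG than 97.1% of all windows. ST3GAL5 had 5 windows with 30, 36, 48, 3 and 3 CG in the order of transcription. The cAMP response element TGACGTCA was found once in each of the 2 most upstream windows of ST3GAL5, which overlap and so share 1 match, and is in 1.85% of all windows. The E-box CACGTG was found once in the most upstream ST3GAL4 window and is in 7.26% of all windows. ST3GAL2 had no entry. Windows on chromosome 8, where ST3GAL1 lies, were left out, so the promoter of this called rise was not examined. All 4 members with windows used here, among them the called fall and a called rise, had at least 1 window above the median of all windows. That median is of single windows, so a gene with several windows exceeds it more easily, and the share of all genes that do was not computed.

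**Figure D5:**
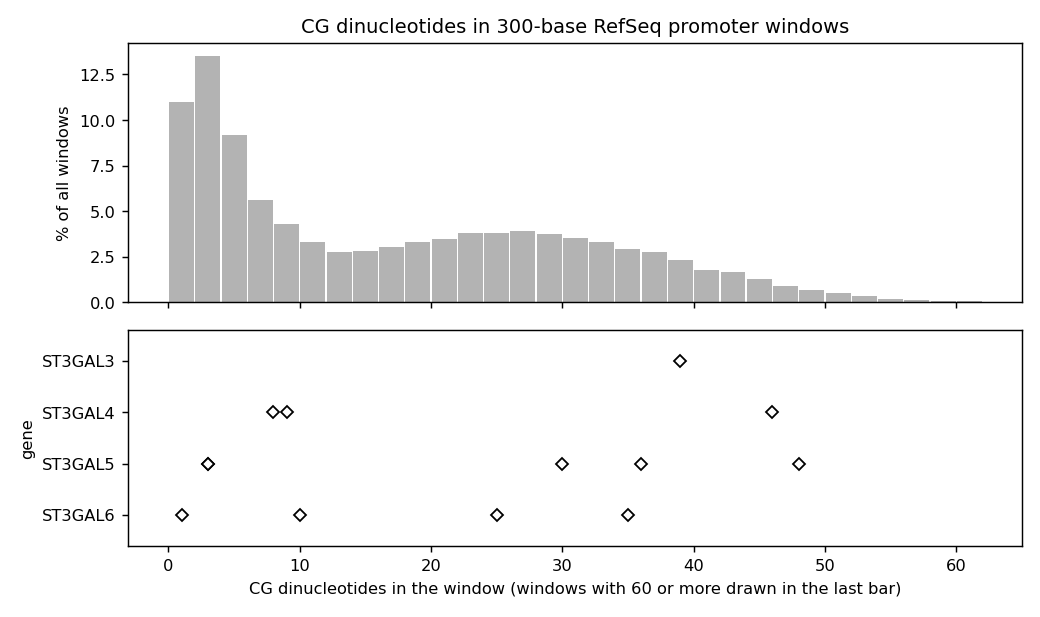
Number of CG dinucleotides per 300-base promoter window (x axis) for all 35116 windows, as the percentage of windows (upper panel), and for each of the 13 windows of ST3GAL3 to ST3GAL6 (lower panel, diamonds). ST3GAL3 has 1 window with 39 CG, and the windows of the other genes run from 1 to 48.

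Likeness of pattern was described by Pearson's r over the 6 arrays with the 926 other named genes. These points share the treatment contrast and the arrays, so a high r is common. ST3GAL4 was most like ST3GAL6 (r = 0.942) and next like the sulfotransferase gene CHST7 (0.941). ST3GAL6 was most like the galectin gene LGALS7 (r = 0.994), which changed by 2.07 on the log2 scale, and next like WNT10A (0.985). ST3GAL3 was most like ALG2, a mannosyltransferase of the N-glycan precursor (r = 0.991), and EIF3D (0.99). ST3GAL5 was most like UGDH, which makes UDP-glucuronic acid (r = 0.999), and the receptor gene MET (0.977). ST3GAL1 was most like IL2RG (r = 0.988) and ANGPT2 (0.983). The lowest likeness was that of ST3GAL2, with POFUT4 (r = 0.879) and WNT7B (0.833).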

How the data were processed

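Biotin-labelled cRNA was made from HCT-15 total RNA by an Affymetrix protocol, per the labels. Log2 values, 1 per probe set and array, were deposited by the authors, and the submitters' processing notes name RMA. Its settings and the platform were not given in the sources used here. The log2 scale was inferred from the values, which span 2.13 to 13.67. RMA compresses changes of dim probe sets, and no detection call was used. The number of value columns left unused was 0.

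RefSeq identifiers in the probe set names were matched without versions to a RefSeq table (GRCh38.p14). Of 1259 probe sets 1043 received 1 symbol and 216 stayed unnamed, 190 of them without such an identifier. A gene with several probe sets was represented by that of the highest mean. Groups follow the treatment entry. At most 5 values were identical between any pair of arrays.

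A model with treatment as its only term was fitted to all probe sets in limma 3.58.1 (R 4.3.3; lmFit, eBayes, two-sided, Benjamini-Hochberg over 1259 probe sets, called under 0.05). Errors beside changes are standard errors of this fit. In simulated treated and untreated arrays with 1259 probe sets, 100 of 100 changes of 0.585 and 100 of 100 changes of 1 (log2) were called, with 14 false calls. Both sizes exceed every change of the family but that of ST3GAL3, so the recovery of smaller changes was not tested. Named were all members, the called gene with the largest rise and fall of each list, and the 2 genes most correlated with each member. The called markers, the other probe sets of NEU1, FUT3, ST8SIA4 and A4GALT, and B4GALT5, B4GALT6, ST8SIA1 and ST8SIA5 were added after their values were seen. The members and the lists were chosen with earlier results of these data known. Alternatives were 2 rescalings, a filter on dim probe sets, an intensity trend, array weights, a block for the replicate number, leaving out each array, an ordinary equal-variance test, and thresholds of 0.01 and 0.1.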

Additional observations from a re-analysis of the deposited data

How the results depend on the processing

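The fall of ST3GAL3 was called under every alternative run. The called rises among the 6 genes numbered 1 with the dimmest probe sets left out (839 kept, ST3GAL6 not among them), 1 in the ordinary test, 1 at a threshold of 0.01, 4 at 0.1 and 4 with array weights, against 2 as reported, and 2 to 4 when 1 array was left out, with 4 reached without treated replicate 3. ST3GAL1, at a change of 0.33, missed the threshold in the ordinary test and at 0.01. ST3GAL4 passed with array weights (0.31) and at 0.1 (0.25), and its change was 0.19 to 0.33 when 1 array was left out. At 0.05 it was called in 3 of 13 alternatives. Its change was 0.24 after quantile normalization and 0.18 after median centring, and it was not called in either. ST3GAL5 passed with array weights (0.28) and at 0.1 (0.25), and its change was 0.19 to 0.32 when 1 array was left out. At 0.05 it was called in 4 of 13 alternatives. Its change was 0.17 after quantile normalization and 0.18 after median centring, again without a call. ST3GAL2, not called anywhere, turned to -0.033 after quantile normalization and -0.029 after median centring, and lay at -0.034 to 0.094 when 1 array was left out. Its other probe set turned to -0.057 after median centring and lay at -0.050 to 0.073 when 1 array was left out. These small values have no settled direction, and the cause was not tested. When 1 array was left out, the change of ST3GAL1 minus ST3GAL4 turned to -0.08 and that of ST3GAL1 minus ST3GAL5 to -0.07 (both without treated replicate 3), ST3GAL1 minus ST3GAL6 turned to 0.01 (without treated replicate 2), and ST3GAL4 minus ST3GAL5 turned to as much as 0.11 (without untreated replicate 3). The groups overlapped in all 4 of these pairs.

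Replicate numbers are shared by the groups. Deviations of same-numbered arrays correlated at -0.27, 0.04 and -0.11, and no array correlated best with its own number. The highest value was 0.42, for treated replicate 3 with untreated replicate 1. Deviations from a mean of 3 arrays depend on each other, so these values cannot tell whether same-numbered arrays share a culture or batch. With the replicate number as a block, 394 probe sets were called against 438, and ST3GAL5 passed with the same change of 0.25 (adjusted p = 0.0456). The median change of all probe sets was -0.01 as deposited, -0.05 after quantile normalization and -0.08 after median centring. With 3 arrays per group and no measured background, changes of dim probe sets such as ST3GAL6 are limited in precision.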

Other observations

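ST3GAL4 and ST3GAL6, the type 2 lactosamine enzymes, followed each other over single arrays. Both were highest in treated replicate 2 and lowest in untreated replicate 1, and their difference ranged over 4.20 to 4.31 in treated cells and 4.41 to 4.45 in untreated cells. ST3GAL1 differed from them, with its highest level in treated replicate 3, where ST3GAL4, ST3GAL5 and ST3GAL6 had their lowest treated level. The likeness of ST3GAL4 and ST3GAL6 (r = 0.942) was not particular to this pair. ST3GAL4 was about as like CHST7 (0.941), and ST3GAL6 was more like LGALS7 (0.994) and WNT10A (0.985). The probe set of ST3GAL6 is also dim.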
